A study of Mus musculus with 14 samples.

Results

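The 78 genes for mitochondrial ribosomal proteins were described in the medial prefrontal cortex of mice after repeated social defeat. Members were the genes on the array whose current symbol starts with Mrpl or Mrps and a digit, matched through the RefSeq transcript that the array design gives for each probe, out of 20887 genes named in this way. They were covered by 100 of the 55681 probes, and the brightest probe stood for a gene that had several. Of the 78 genes, 77 were well above background on all 14 arrays and were tested among 14445 genes. The remaining gene, Mrpl21, was well above background on 0 of 14 arrays, so this probe gave no usable level for it.

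All mice were wild-type C57BL/6, and each array held RNA of 1 mouse. The 5 naive mice were transferred between cages, and the other mice went through repeated social defeat stress, in which a mouse is repeatedly attacked by an aggressor. The defeated mice were labelled by their behaviour as susceptible (6 mice) or resilient (3 mice). Tissue was taken with a 1.5 mm punch at 4 h after the last session from perfused brains, and 35 ng of RNA per mouse was labelled with the dye Cy3. The labels give neither age nor sex, and they do not tie a mouse to 1 of the independent experiments that the series describes. The groups share wild-type tissue and the cage-transferred controls, and both defeated groups are compared below with the same 5 naive mice.

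Mitochondria carry their own ribosomes, which translate the few proteins encoded by mitochondrial DNA, all of them core parts of the oxidative phosphorylation complexes. All protein components of these ribosomes are encoded in the nucleus, made on cytosolic ribosomes and imported. Genes named Mrpl encode proteins of the large subunit, which forms peptide bonds, and genes named Mrps mostly proteins of the small subunit, which reads the messenger RNA. The names have exceptions: the products of Mrps30 and Mrps18a sit in the large subunit, and the product of Mrps36 belongs to the 2-oxoglutarate dehydrogenase complex.

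Each group was spread over slides: slides 1 and 2, scanned on 1 day, carried naive, susceptible and resilient mice, while slide 3, from a second scan day, carried no resilient mouse (2 naive, 2 susceptible). Naive arrays occupied row 1 and defeated mice row 2 throughout, so an effect of the row cannot be told apart from one of defeat. The 75th percentile of the log2 signal of an array, its brightness, was 7.82 ± 0.71 for naive mice (SD, n = 5), 8.22 ± 0.61 for susceptible mice (n = 6) and 8.03 ± 0.12 for resilient mice (n = 3). On slides 1 and 2 every naive array was dimmer than every defeated one. There this percentile was 7.31, 7.36 and 7.25 for naive mice and ran from 7.69 to 8.17 for defeated mice. On slide 3 this percentile was 8.54 and 8.64 for naive and 9.24 and 8.63 for susceptible mice. Values below are log2 signal minus this percentile, so a level of 0 means that the probe was as bright as the 75th percentile of its array. Levels of different genes come from different probes and are not compared with each other.

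Several cell type markers differed between the groups beside the genes described here. All 4 neuron markers were detected, with a median difference between susceptible and naive mice of 0.10. All 3 markers of inhibitory neurons had higher means, with a median of 0.23. Of 4 markers of cortical excitatory neurons 2 were higher and 2 lower, with a median of -0.09. Of 4 microglial markers 3 had lower means, with a median of -0.26. The 2 markers of oligodendrocyte precursors had a median of 0.01. In each of these lists 0 passed. All 5 astrocyte markers had lower means in susceptible mice, with a median difference of -0.44, and 2 of them passed the test (Aldoc and S100b). The 3 neutrophil markers tested, of 4 listed, had higher means, with a median of 3.53, and 2 of them passed (S100a8 and S100a9). Per mouse, the neutrophil list lay between -0.45 and 0.55 in naive, 1.43 and 5.22 in susceptible and 1.48 and 3.39 in resilient mice, relative to the naive mean. The astrocyte list lay between -0.22 and 0.22 in naive, -0.66 and -0.22 in susceptible and -0.74 and -0.34 in resilient mice. All 4 endothelial markers had lower means in susceptible mice, with a median of -0.59 and 1 that passed (Slco1a4), and that list lay between -0.24 and 0.31 in naive, -0.90 and -0.39 in susceptible and -0.77 and -0.11 in resilient mice. All 6 markers of meningeal fibroblasts had lower means, with a median of -1.06 and 0 that passed, and the ranges were -0.74 to 0.44, -2.75 to -0.05 and -2.64 to 0.47 in the same order. The 3 erythroid markers tested, of 5 listed, had higher means, with a median of 1.67 and 0 that passed, and the ranges were -1.03 to 0.79, -0.09 to 3.11 and -0.29 to 2.10. Of 4 oligodendrocyte markers 3 had lower means, with a median of -0.52 and 0 that passed, and both of the 2 markers of pericytes and smooth muscle tested, of 4 listed, had lower means, with a median of -0.69. The part of these shifts in the differences below was not tested, and in tissue RNA fewer cells of a type and less RNA per cell cannot be told apart.

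The first comparison set the susceptible against the naive mice. A single mitochondrial ribosomal gene, Mrpl35, rose in susceptible mice, and none fell. Mrpl35 encodes a protein of the large subunit. The call thus covered 1 of 77 genes (1.3%), where 2.6% of all genes tested passed the same test, 1.64% higher and 0.962% lower (limma, adjusted p under 0.05 over 14445 genes). At an unadjusted p under 0.05 there were 13 higher members (16.9%) and 3 lower members (3.9%), against 13.1% and 10.9% of all genes. Without regard to size, the difference was above 0 for 52 members and below 0 for 25, and its median was 0.06, against 0.02 over all genes tested. Over all genes the difference was above 0 for 7687 and below 0 for 6758. The differences of the 77 genes ran from -0.34 to 0.53.

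In naive mice the level of Mrpl35 was -0.58, -0.27, -0.95, -0.60 and -0.34. It was 0.02, -0.04, 0.05, 0.31, -0.24 and -0.23 in the susceptible mice, with a median of -0.01. Every susceptible mouse was above every naive mouse, although susceptible 5 and 6 at -0.24 and -0.23 lay close to naive 2 at -0.27. Groups separated in this way, susceptible above naive, for 1 of the 77 members and for 2.49% of all genes, and the other way round for 0 members and 1.64% of all genes. The mean rose from -0.55 ± 0.27 (SD, n = 5) to -0.02 ± 0.20 (n = 6), a difference of 0.53 ± 0.13 (SE) or 1.44-fold (adjusted p = 0.0499 in limma). That call sat at the threshold: without 1 mouse at a time it was kept in 2 of 14 fits (without naive 5 or susceptible 6), and its adjusted p reached 0.102 without naive 3, where the difference was 0.43. Without susceptible 6, 4 members were called, where 6.01% of all genes were. With normexp background correction in place of the scanner's own, the difference was 0.28 and the adjusted p was 0.162.

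Since each group was spread over the slides, the fit was repeated with slide as a block. In that fit 10 members were higher and 0 lower in susceptible mice (13% of 77), where 15.4% of all genes passed, 8.87% higher and 6.5% lower. The 10 genes were Mrps9, Mrps31, Mrpl15, Mrps2, Mrpl35, Mrps6, Mrps12, Mrpl45, Mrpl38 and Mrpl43, of which 5 belong to each subunit. Their differences in this fit lay between 0.24 (Mrpl43) and 0.52 (Mrpl35). Within each of the 3 slides, the susceptible mean was above the naive mean for each of these 10 genes, which is a description only, since the fit that chose them favours it. The same held for 25 of all 77 members (32.5%) and for 29.5% of all genes, and the susceptible mean was below the naive mean on every slide for 4 members (5.19%) and 22.4% of all genes.

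**Figure D1:**
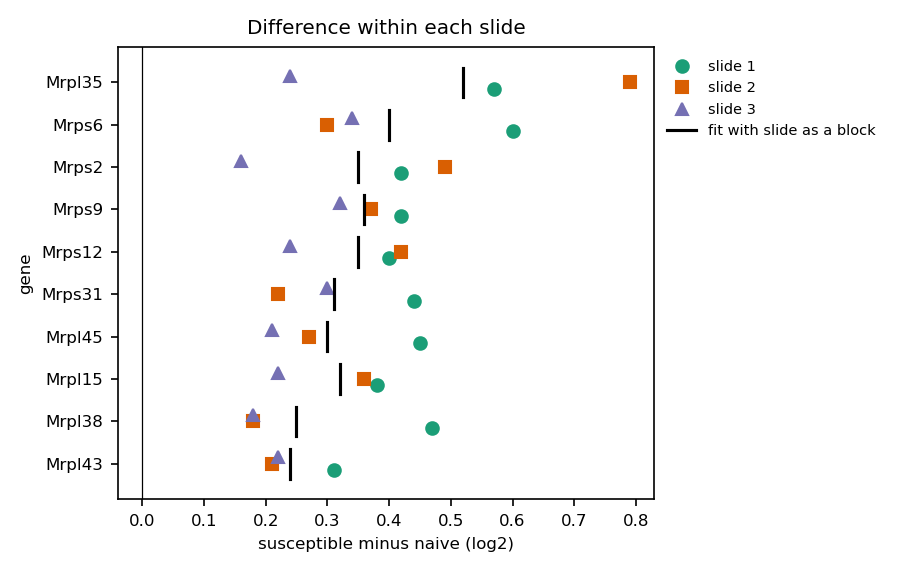
Susceptible minus naive mean (log2, horizontal axis) within slide 1 (2 susceptible, 1 naive), slide 2 (2 and 2) and slide 3 (2 and 2) for the 10 genes with an adjusted p under 0.05 with slide as a block. The black bar is the difference in that fit, which chose the genes, and the points run from 0.16 for Mrps2 on slide 3 to 0.79 for Mrpl35 on slide 2.

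Of the small subunit genes called with the block, Mrps31 and Mrps9 are given first. Mrps31 was at 1.63, 1.69, 1.69, 1.81 and 1.80 in naive mice. In susceptible mice it was at 2.05, 2.10, 1.80, 2.03, 2.18 and 2.04. Only susceptible 3, at 1.80, lay within the naive range. The difference was 0.31 ± 0.08 (SE), with an adjusted p of 0.0601 in limma without the block and 0.0197 with slide as a block. The levels of Mrps9 were 0.29, 0.26 and 0.17 in the naive mice of slides 1 and 2 and 0.73 and 0.74 in the 2 naive mice of slide 3. In susceptible mice they were 0.65, 0.77, 0.52 and 0.65 on slides 1 and 2 and 1.09 and 1.01 on slide 3. The groups overlapped over all slides and did not overlap within any slide. This again is a description only, since the fit that chose Mrps9 favours it and slide 1 held a single naive mouse. The difference of Mrps9 was 0.34 ± 0.14 (adjusted p = 0.147 in limma) without the block and 0.36 ± 0.07 (adjusted p = 0.0102) with it, and the latter call was kept in all 14 fits that left out 1 mouse.

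Mrps12 encodes a protein at the decoding centre, the site where codon and transfer RNA are matched. Its level was 3.79, 3.84, 4.06, 3.90 and 3.76 in naive mice. In susceptible mice it was 4.18, 4.19, 4.12, 4.63, 4.08 and 4.06. The 2 groups met at naive 3 and susceptible 6, both at 4.06, and susceptible 4 stood above the rest at 4.63. The difference was 0.34 ± 0.11 (adjusted p = 0.0987 in limma, 0.0314 with slide as a block). Mrps7 and Mrps14, which encode proteins of the head of the small subunit, differed by 0.06 ± 0.08 and -0.09 ± 0.11, and neither passed in either fit (adjusted p = 0.678 and 0.651 in limma).

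Mrps6 was at 2.85, 3.00, 3.26, 3.00 and 2.95 in naive mice and at 3.47, 3.45, 3.16, 3.69, 3.39 and 3.25 in susceptible mice. Naive 3, at 3.26, lay above susceptible 3 and 6. The difference was 0.39 ± 0.11 (adjusted p = 0.0644 in limma, 0.0290 with slide as a block). The RefSeq gene models place Mrps6 over Slc5a3, which encodes the sodium-coupled transporter of myo-inositol, and the start sites of both genes are 14 bases apart on the same strand. Slc5a3, named after its values were seen, rose from -0.40 ± 0.37 (SD, n = 5) in naive to 0.39 ± 0.30 (n = 6) in susceptible mice, a difference of 0.79 ± 0.18 (SE, adjusted p = 0.0378 in limma). Of the 21 protein-coding genes whose models overlap those of a member, 19 were tested and Slc5a3 was the 1 that passed. Over all genes 2.6% passed. Whether the probes of both genes could detect a shared transcript was not tested.

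Genes of the large subunit that passed only with the block included Mrpl45, whose product anchors the mitochondrial ribosome to the inner membrane near the exit of the peptide tunnel. Mrpl45 was at 2.40, 2.34, 2.55, 2.50 and 2.50 in naive mice and at 2.84, 2.86, 2.54, 2.90, 2.81 and 2.62 in susceptible mice. Susceptible 3, at 2.54, was the 1 susceptible mouse within the naive range. The difference was 0.30 ± 0.09 (adjusted p = 0.0688 in limma, 0.0377 with slide as a block). Mrpl38 differed by 0.27 ± 0.09 (adjusted p = 0.0961 in limma, 0.0431 with the block), Mrpl43 by 0.23 ± 0.09 (adjusted p = 0.155 and 0.0459), and Mrpl15 by 0.30 ± 0.14 (adjusted p = 0.221 and 0.0202).

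The call of a single gene often rested on few mice. Leaving out 1 mouse at a time with slide as a block, Mrps9 was kept in 14 of 14 fits, Mrpl35, Mrpl15 and Mrps31 in 12 each, Mrps2 in 11, Mrps6 in 8, Mrps12 in 7, Mrpl45 in 4, Mrpl38 in 3 and Mrpl43 in 1. The highest adjusted p came without naive 1, the only naive mouse on slide 1, for each of the 10 genes. The number of members called with the block was 1 without naive 1, 2 without susceptible 4 and 4 without susceptible 5, where 4.86%, 5.41% and 6.52% of all genes were called. It was 5 without susceptible 1 or 2 (10.6% and 10.2% of all genes) and 6 without naive 2 or naive 5 (9.35% and 12.8%). Without susceptible 3 it was 14, beside 10.7% of all genes.

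**Figure D2:**
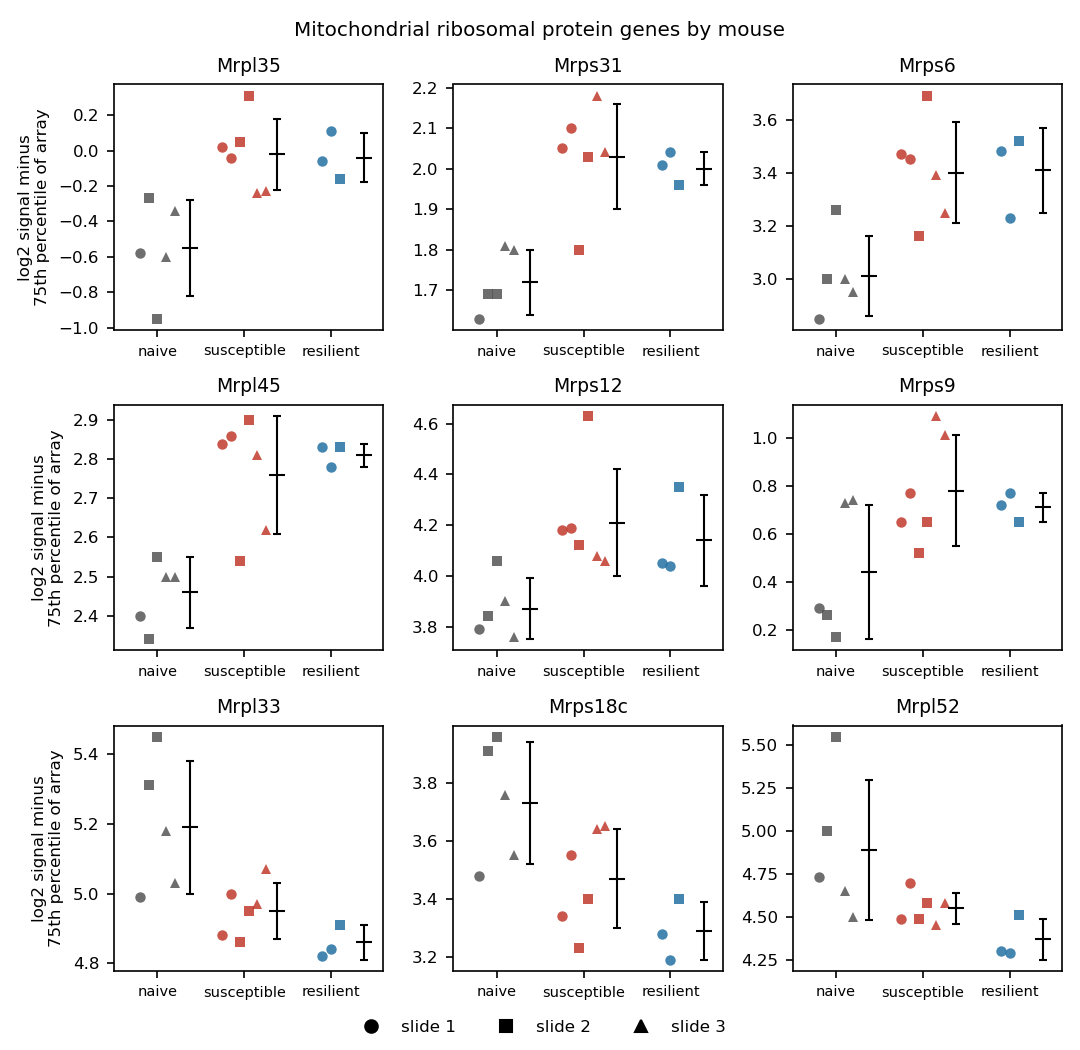
Level by mouse (log2 signal minus the array's 75th percentile, vertical axis) of 6 genes with higher and 3 with lower susceptible means than naive means. Points are mice, shaped by slide, and bars give the group mean ± SD. Mrpl35 separates the naive from the susceptible mice, while the naive values of Mrpl52 run from 4.50 to 5.55 with naive 3 at the top.

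Lower in susceptible mice, without passing the test in either fit, were Mrpl52, Mrps18c and Mrpl33. Mrpl52, a large subunit gene, was at 4.73, 5.00, 5.55, 4.65 and 4.50 in naive mice and between 4.45 and 4.70 in susceptible mice, with a median of 4.54. The difference was -0.34 ± 0.15 (adjusted p = 0.191 in limma), and -0.17 without naive 3, the naive mouse with the highest value. For Mrps18c, which encodes 1 of the 3 mitochondrial S18 paralogs, the difference was -0.26 ± 0.11 (adjusted p = 0.177). Mrpl33 differed by -0.24 ± 0.09 (adjusted p = 0.142). The differences of all 3 genes were widest on slide 2, at -0.74, -0.61 and -0.47 for Mrpl52, Mrps18c and Mrpl33, and lay between -0.14 and -0.01 on slides 1 and 3.

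Of the genes chosen for their place in the ribosome, those given next did not pass the test. The stalk of the large subunit recruits translation factors, and of its genes Mrpl10 differed by -0.01 ± 0.09, Mrpl11 by 0.04 ± 0.10 and Mrpl12 by -0.12 ± 0.10. Of the S18 paralogs, Mrps18a differed by 0.15 ± 0.09 and Mrps18b by 0.04 ± 0.10. Mrpl44, which encodes a protein related to RNase III enzymes, differed by 0.07 ± 0.11, and Mrps30 by 0.09 ± 0.10. Mrps27, a gene of a pentatricopeptide repeat protein, differed by 0.20 ± 0.10, Mrps24 by -0.03 ± 0.08 and Mrps28 by -0.18 ± 0.09. Mrps36, whose product is not a ribosomal protein, differed by 0.01 ± 0.10. Their adjusted p in limma was between 0.248 (Mrps28) and 0.954 (Mrps36), and none of these genes passed with slide as a block. Mrps26, Mrpl20 and Mrpl1, taken for the brightness of their probes, differed by 0.09 ± 0.09, -0.11 ± 0.12 and 0.20 ± 0.13 and did not pass either.

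By subunit, 34 of 50 large subunit genes and 17 of 26 small subunit genes had a difference above 0 between susceptible and naive mice, with medians of 0.05 and 0.11. Of all 14445 genes, 7687 had a difference above 0. Genes with a counterpart in bacterial ribosomes had a median of 0.03 over 45 genes, and genes without one a median of 0.09 over 31. The gaps between these medians were not tested.

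**Figure D3:**
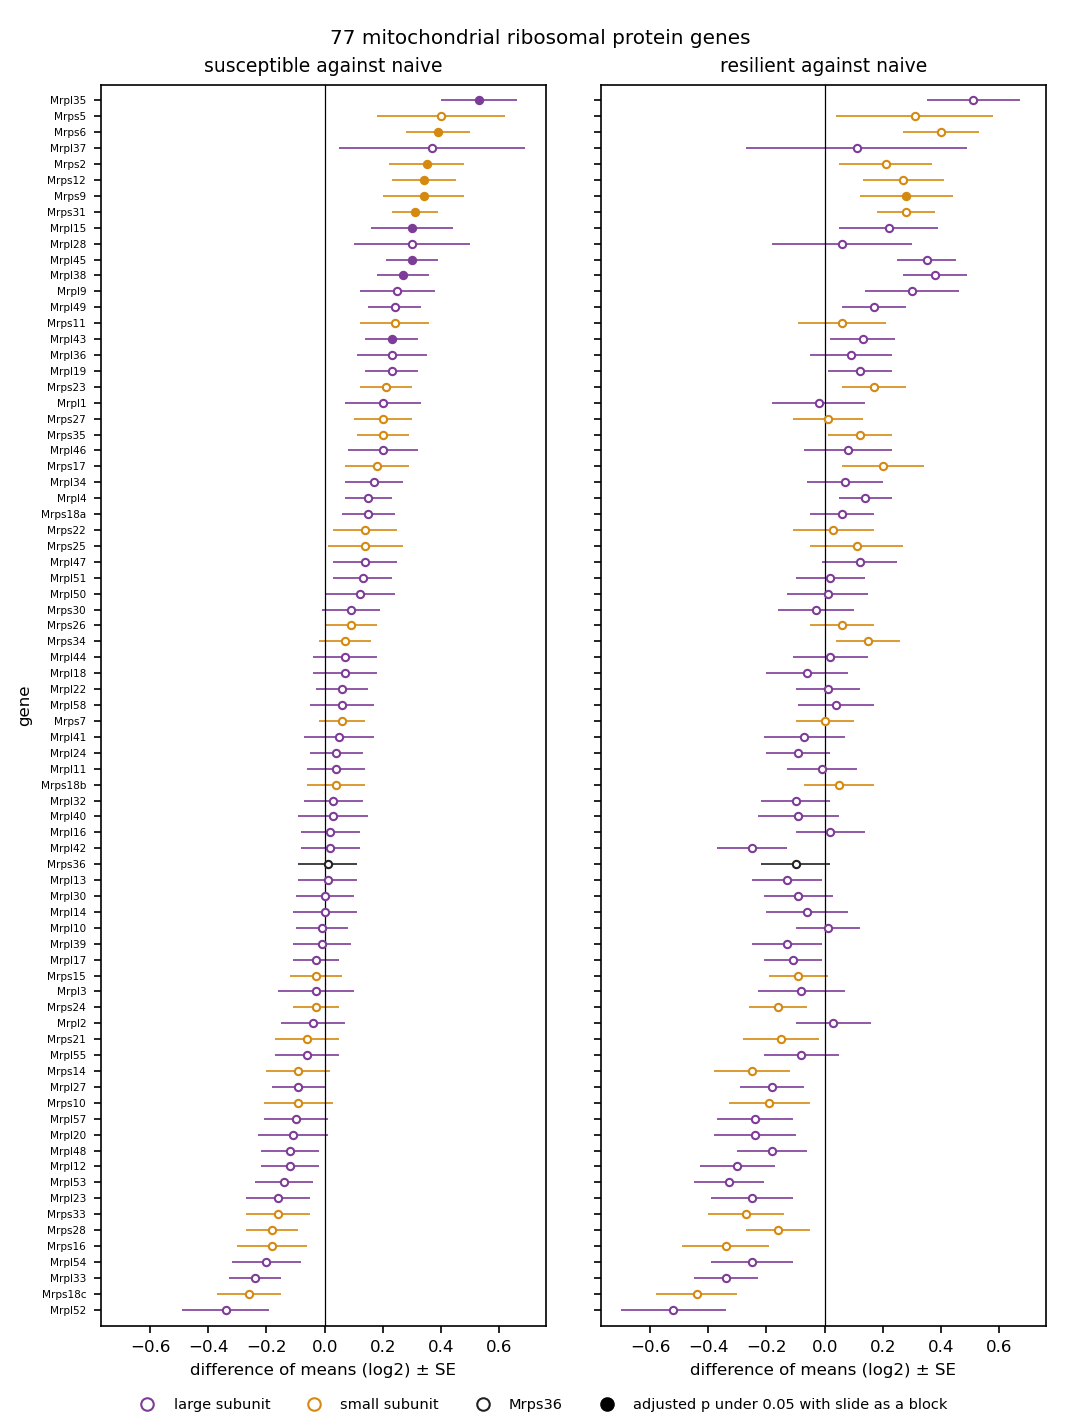
Difference of means (log2, horizontal axis) ± SE of the 77 tested genes, sorted by the difference between susceptible and naive mice, on the left for susceptible and on the right for resilient against naive. Colours mark the subunit, and filled points had an adjusted p under 0.05 with slide as a block. The left panel runs from -0.34 (Mrpl52) to 0.53 (Mrpl35) with 10 filled points, and the right panel has 1, Mrps9.

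The spread within groups was narrow for most of these genes. The SD within groups had a median of 0.16 over the 77 members, against 0.23 over all genes tested. It was narrowest for Mrpl4 at 0.08, Mrps24 at 0.09 and Mrpl17 at 0.10. It was widest for Mrpl37 at 0.59, Mrps5 at 0.40 and Mrpl28 at 0.36. The probes of Mrpl37 and Mrps5 were also among the 3 dimmest of the tested members. All 77 members were well above background on every array, while the filter required this in only 1 group. The part of signal level in the spread was not tested. In Mrpl37 the naive mice were at -0.98, -1.19, -2.28, -0.17 and -0.21, and in Mrps5 at -1.39, -1.23, -2.26, -0.80 and -0.80. In Mrpl28 they were at 1.02, 1.24, 0.46, 1.70 and 1.65. Naive 3 was the lowest and the 2 mice of slide 3 were the highest naive mice in all 3 genes, the pattern also seen in Mrps9, Mrpl15 and, apart from naive 2 below naive 3, Mrps2. Among the naive arrays naive 3 was also the dimmest, at 7.25, and those of slide 3 were the brightest, at 8.54 and 8.64. The part of array brightness in this pattern was not tested.

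Per mouse, the median of the 77 genes relative to the naive mean was -0.15, 0, 0.15, 0.04 and -0.06 in naive mice. It was 0.05, 0.15, -0.13, 0.11, 0.12 and 0.09 in susceptible mice and 0.03, -0.06 and 0 in resilient mice. The groups overlapped, and susceptible 3 was the 1 susceptible mouse below 0. Within slides, the median difference between susceptible and naive mice was 0.24 on slide 1, -0.09 on slide 2 and 0.12 on slide 3, so its sign changed between slides. Over all genes tested the same medians were 0.07, -0.01 and 0.03.

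The other parts of the mitochondrial translation machinery were taken from lists. Aminoacyl-tRNA synthetases of mitochondria charge transfer RNAs for the mitochondrial ribosome. Of 15 tested, 12 had a difference above 0, with a median of 0.20, and 0 passed without the block. With slide as a block 5 of the 15 were higher (Rars2, Yars2, Pars2, Ears2 and Cars2) and 0 lower. Over all genes 8.87% were higher and 6.5% lower in that fit. Rars2, the arginyl-tRNA synthetase, was at 0.49, 0.46, 0.49, 1.03 and 0.90 in naive mice and at 1.04, 1.03, 0.62, 0.96, 1.39 and 1.21 in susceptible mice. As in Mrps9, the highest naive values were those of slide 3. The difference of Rars2 was 0.37 ± 0.14 (adjusted p = 0.144 in limma) without and 0.39 ± 0.09 (adjusted p = 0.0199) with the block.

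Of 24 assembly and ribosomal RNA modification factors tested, 18 had a difference above 0, with a median of 0.13. With the block 4 were higher (Eral1, Rpusd4, Ybey and Mrm3), 1 was lower (Mpv17l2), and without it 0 passed. Over all genes 8.87% were higher and 6.5% lower with the block. Eral1, a chaperone of the small subunit ribosomal RNA, was between 0.12 and 0.44 in naive and between 0.38 and 0.71 in susceptible mice. The difference of Eral1 was 0.33 ± 0.09 (adjusted p = 0.0620 in limma, 0.0220 with the block).

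Among 12 translation factors the median was 0.13. Tsfm was higher and Mtif2 lower with the block, against 8.87% and 6.5% of all genes, and 0 passed without it. Tufm, the elongation factor that brings transfer RNAs to the ribosome, differed by 0.30 ± 0.09 (adjusted p = 0.0896). Mtif3, an initiation factor, differed by 0.33 ± 0.11 (adjusted p = 0.0930). Taco1, which helps translate the Cox1 message, differed by 0.42 ± 0.13 (adjusted p = 0.0930), with 2 of its 5 naive arrays not well above background.

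The 5 mitochondrial ribosomal proteins under other names had a median of 0.01 and 0 calls in either fit. Chchd1 differed by -0.40 ± 0.16 and Ptcd3 by 0.26 ± 0.13 (adjusted p = 0.163 and 0.243). Of 7 genes for mitochondrial transcription and message stability, 0 passed in either fit, with a median of 0.09. Within this list, Lrpprc and Slirp, whose products form 1 complex, differed by 0.23 ± 0.11 and -0.32 ± 0.13 (adjusted p = 0.199 and 0.155).

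Cytosolic ribosomal genes gave other values than the mitochondrial ones in the same comparison. Of 78 tested, 76 had a difference below 0 between susceptible and naive mice, with a median of -0.40, and 2 fell (Rpl4 and Rpl21). Over all genes tested 0.962% fell. Rpl4 differed by -0.41 ± 0.09 (adjusted p = 0.0391 in limma) and Rpl21 by -0.44 ± 0.11 (adjusted p = 0.0431). With slide as a block 51 of the 78 fell and 0 rose, where 6.5% of all genes fell and 8.87% rose. The nuclear genes of oxidative phosphorylation, most of whose complexes take up products of the mitochondrial ribosome, had a difference below 0 for 62 of 83. Their median was -0.11, with 0 calls without the block and 7 lower with it, against the same 6.5% of all genes. The medians are descriptions of these libraries, and the gap between the lists was not tested.

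**Figure D4:**
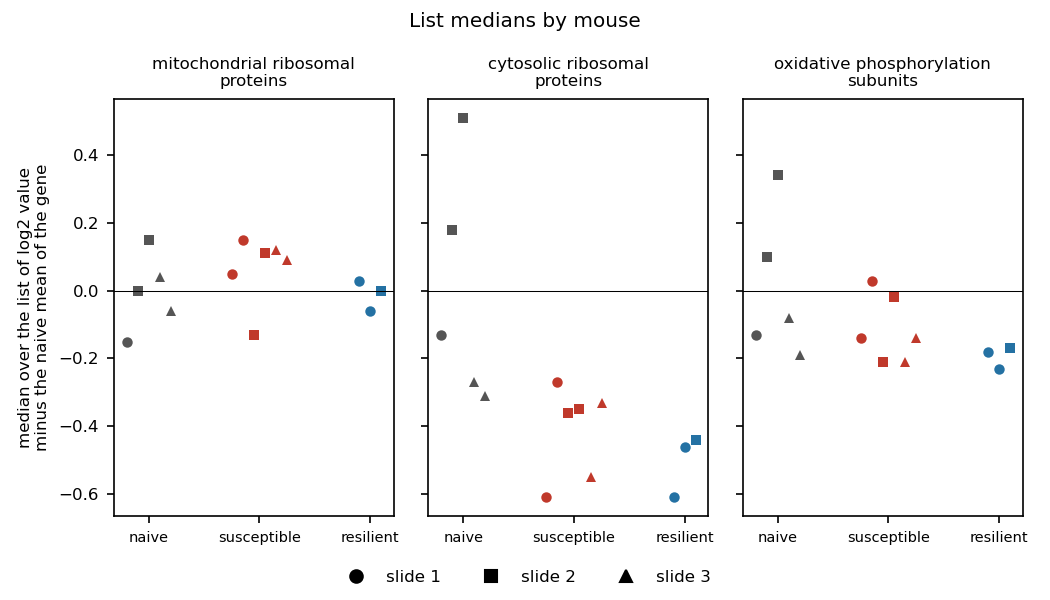
Median over each list of the log2 value minus the naive mean of the gene (vertical axis) in each mouse, for 77 mitochondrial ribosomal, 78 cytosolic ribosomal and 83 oxidative phosphorylation genes. Points are mice, shaped by slide. Mitochondrial ribosomal medians stay between -0.15 and 0.15, while those of the cytosolic list run from -0.31 to 0.51 in naive mice and from -0.61 to -0.27 in susceptible mice.

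Naive 3 had the highest naive median in all 3 lists, at 0.15 for the mitochondrial list. The cytosolic naive and susceptible medians overlapped through naive 4 and 5, the naive mice of slide 3. The within-slide medians of the cytosolic list were -0.31, -0.68 and -0.18 on slides 1, 2 and 3, all below 0.

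The second comparison set the resilient against the same naive mice, and no mitochondrial ribosomal gene passed (0 of 77, against 0.145% of all genes in limma, 0.0831% higher and 0.0623% lower). With no adjustment, at p under 0.05, there were 5 higher members (6.49%) and 6 lower members (7.79%), against 10.7% and 9.62% of all genes. The difference was above 0 for 40 members and below 0 for 37, with a median of 0.01 against 0.02 over all genes. Over all genes 7672 were above 0 and 6773 below. In the blocked fit 1 member rose (1.3%), against 3.54% of all genes, 2.04% higher and 1.5% lower: Mrps9, which differed by 0.28 ± 0.16 (SE, adjusted p = 0.360 in limma) without the block and by 0.42 ± 0.09 (adjusted p = 0.0318) with it. The resilient levels of Mrps9 were 0.72, 0.77 and 0.65, above the naive mice of slides 1 and 2 and level with the 2 of slide 3. Leaving out 1 mouse at a time, this call was kept in 7 of 14 fits, and the adjusted p reached 0.209 without resilient 3.

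Resilient mice lay above all naive mice in 6 of 77 members (7.79%), against 8.32% of all genes, and below all naive mice in 4 (5.19%), against 6.41%. The 6 higher were Mrpl38, Mrpl45, Mrpl35, Mrps31, Mrps23 and Mrpl19, and the 4 lower were Mrps18c, Mrpl33, Mrps16 and Mrpl17. Mrpl38 was at 0.33, 0.40, 0.47, 0.31 and 0.33 in naive mice and at 0.76, 0.75 and 0.72 in resilient mice. The resilient mice stood close together and apart from the naive range, and the difference was 0.38 ± 0.11 (adjusted p = 0.102 in limma). Mrpl45 was at 2.83, 2.78 and 2.83 in resilient mice, a difference of 0.35 ± 0.10 (adjusted p = 0.106), and Mrpl35 at -0.06, 0.11 and -0.16, a difference of 0.51 ± 0.16 (adjusted p = 0.115).

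Of the lower genes, Mrps18c was at 3.48, 3.91, 3.96, 3.76 and 3.55 in naive mice and at 3.28, 3.19 and 3.40 in resilient mice. The highest resilient value was 3.40 and the lowest naive value 3.48. The difference was -0.44 ± 0.14 (adjusted p = 0.114 in limma). Mrpl33 was at 4.99, 5.31, 5.45, 5.18 and 5.03 in naive mice and at 4.82, 4.84 and 4.91 in resilient mice, a difference of -0.34 ± 0.11 (adjusted p = 0.130). Mrpl52 differed by -0.52 ± 0.18 (adjusted p = 0.140), and by -0.36 without naive 3. None of these differences passed the threshold.

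The third comparison set the susceptible against the resilient mice. No member and no gene at all passed it (0%, limma), with and without slide as a block. At an unadjusted p under 0.05 there were 109 genes without the block, 1 of them a member, and 280 with it, 0 of them members. The difference was above 0 for 67 of 77 members, with a median of 0.09 against 0.01 over all genes tested. Of all 14445 genes 7625 were above 0. The lean was not particular to the members, since 75 of 78 cytosolic ribosomal and 78 of 83 oxidative phosphorylation genes were above 0. Within slides the median of the members was 0.13 on slide 1 and -0.03 on slide 2, so it changed sign. Blocking by slide it was 0.06 with 61 members above 0. The member was Mrpl42, with a median of 1.23 and a highest value of 1.44 in susceptible mice, and levels of 0.77, 1.18 and 1.01 in resilient mice. The groups overlapped, since susceptible 1 and 4 lay below resilient 2, and the difference was 0.26 ± 0.11 (SE, adjusted p = 1 in limma). The other members of smallest p were Mrpl53 at 0.19 ± 0.12 and Mrps27 at 0.18 ± 0.12 above 0, and Mrpl38 at -0.11 ± 0.10, Mrps34 at -0.09 ± 0.11 and Mrpl2 at -0.07 ± 0.12 below 0. A difference that misses the threshold does not show that both groups have the same level.

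A second probe was available for 22 of the genes, and all of these probes passed the filter. Its difference between susceptible and naive mice had the same sign as that of the brightest probe in 15 of 22 genes, and both differences lay a median of 0.09 apart. Of the 3 genes with a second probe among the 10 called with the block, Mrpl43 differed by 0.27 ± 0.11 on it, beside 0.23 on its brightest probe, and Mrpl15 by 0.17 ± 0.10, beside 0.30. The second probe of Mrps2 differed by -0.23 ± 0.18, beside 0.35, the widest gap at 0.57. Mrps14 and Mrpl39 were at 0.43 ± 0.17 and 0.40 ± 0.20 on the second probe, beside -0.09 and -0.01. No second probe passed the test over all probes, with adjusted p of 0.180 for Mrpl43, 0.324 for Mrpl15 and 0.506 for Mrps2 in limma.

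**Figure D5:**
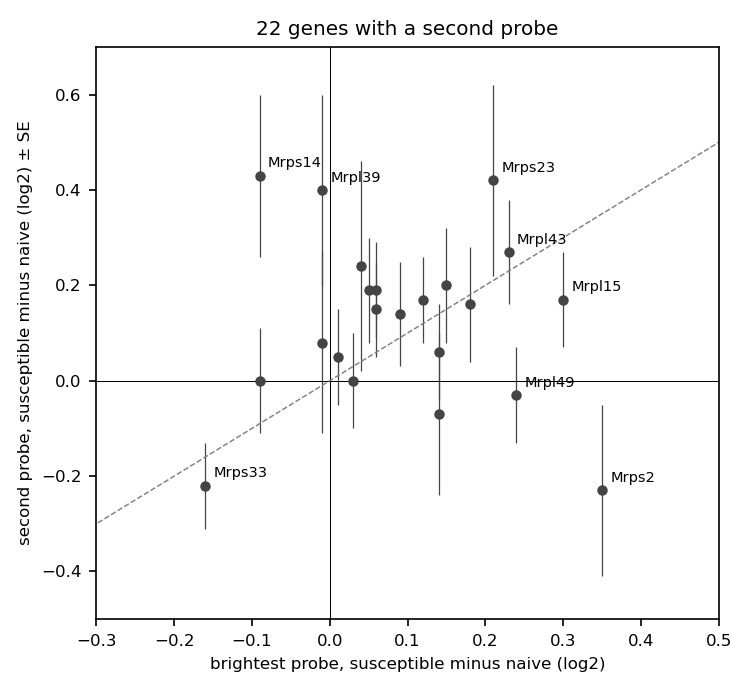
Difference between susceptible and naive means (log2) on the brightest probe (horizontal axis) and on the second probe (vertical axis, ± SE) of 22 genes. The dashed line marks equal differences. Most points lie near it, while Mrps2 (0.35 and -0.23), Mrps14 (-0.09 and 0.43) and Mrpl39 (-0.01 and 0.40) lie away from it.

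Promoter sequence was described for all members that had a window. RefSeq windows of 300 bases, from 250 before to 50 after the start site (GRCm38.p6), were held for 69 of the 78 genes in 75 windows, and those of Mrpl13, Mrpl15, Mrpl19, Mrpl38, Mrpl4, Mrpl54, Mrps28, Mrps34 and Mrps35 were not used here. Each motif was searched on both strands. The letters GCGCANGCG, a form of the site of nuclear respiratory factor 1 (NRF1), a regulator of many mitochondrial genes, were in 21.3% of the members' windows and in 6.25% of all 32851 windows. The letters CCGGAAG, a form of the site of ETS factors such as GABP, were in 34.7% and 8.86%, and AAGATGGCG, a form of the YY1 site, in 10.7% and 1.4%. Related genes had raised shares too. The NRF1, ETS and YY1 types were in 12.3%, 32.9% and 8.22% of the windows of cytosolic ribosomal genes. In those of nuclear oxidative phosphorylation genes they were in 28.4%, 23.0% and 9.46%, so these motifs are not particular to the members. None of these 3 motifs holds another of them within its letters. For comparison, GGGGCGGGG (SP1 type) was in 20.0% and 11.4%, CACGTG (E-box) in 9.33% and 7.15%, TGACGTCA (cAMP response element) in 2.67% and 1.79%, and TATAAA in 6.67% and 13.6%. These shares count windows, and some genes have several that overlap. Counted by gene, the E-box was in 5 of 69 members and 2187 of 27025 genes, so it was not raised. The SP1 type was in 13 of 69 members and 3488 of 27025 genes. Members' windows had a median GC content of 58.7%, against 52.7% over all windows, and the part of GC content in these shares was not tested.

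At least 1 of the NRF1, ETS and YY1 types was in the window of 42 of the 69 members, and in 5 of the 8 genes called with the block that have a window. These 2 shares are close, and the share of all windows with any of the 3 was not computed. The windows of 6 of the 8 called genes are shown 5′ to 3′ on the strand of the gene. Matches to the 3 motifs are in capitals, and the windows show the range from no match to several. Mrps9 has 1 NRF1 type match and Mrpl45 has 3, Mrpl43 has 2 ETS type matches, Mrpl35 has 1 YY1 type match after its start site, and Mrps31 and Mrps6 have none of the 3.
Mrps9, chr1:42850983-42851282, plus strand: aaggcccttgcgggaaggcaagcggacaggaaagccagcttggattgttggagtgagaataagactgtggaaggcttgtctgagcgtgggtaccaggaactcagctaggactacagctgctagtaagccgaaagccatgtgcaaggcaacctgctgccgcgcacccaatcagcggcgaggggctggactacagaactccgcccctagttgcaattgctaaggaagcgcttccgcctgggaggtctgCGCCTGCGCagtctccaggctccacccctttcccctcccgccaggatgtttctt
Mrpl45, chr11:97315466-97315765, plus strand: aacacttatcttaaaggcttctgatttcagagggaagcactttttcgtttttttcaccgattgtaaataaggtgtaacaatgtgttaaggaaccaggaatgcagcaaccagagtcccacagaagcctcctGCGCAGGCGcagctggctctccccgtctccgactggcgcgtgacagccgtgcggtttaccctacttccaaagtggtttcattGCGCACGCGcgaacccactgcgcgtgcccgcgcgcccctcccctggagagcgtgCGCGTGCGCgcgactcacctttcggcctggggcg
Mrpl43, chr19:45006393-45006692, minus strand: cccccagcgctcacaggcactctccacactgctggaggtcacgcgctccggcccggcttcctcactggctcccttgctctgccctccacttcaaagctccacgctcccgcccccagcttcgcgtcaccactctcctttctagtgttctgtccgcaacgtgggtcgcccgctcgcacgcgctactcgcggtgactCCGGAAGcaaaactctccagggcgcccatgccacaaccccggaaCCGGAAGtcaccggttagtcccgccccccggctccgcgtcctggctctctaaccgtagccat
Mrpl35, chr6:71823735-71824034, minus strand: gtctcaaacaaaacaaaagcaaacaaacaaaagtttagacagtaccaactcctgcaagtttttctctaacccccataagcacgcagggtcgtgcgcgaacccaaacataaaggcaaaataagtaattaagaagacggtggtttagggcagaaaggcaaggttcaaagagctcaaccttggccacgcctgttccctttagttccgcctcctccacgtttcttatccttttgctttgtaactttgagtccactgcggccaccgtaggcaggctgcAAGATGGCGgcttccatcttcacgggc
Mrps31, chr8:22411090-22411389, plus strand: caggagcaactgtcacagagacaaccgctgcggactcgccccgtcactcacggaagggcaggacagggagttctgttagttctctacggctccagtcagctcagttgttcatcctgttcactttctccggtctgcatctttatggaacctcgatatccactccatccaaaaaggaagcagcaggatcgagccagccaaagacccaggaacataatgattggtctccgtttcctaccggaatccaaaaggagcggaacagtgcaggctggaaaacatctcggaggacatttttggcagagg
Mrps6, chr16:92058086-92058385, plus strand: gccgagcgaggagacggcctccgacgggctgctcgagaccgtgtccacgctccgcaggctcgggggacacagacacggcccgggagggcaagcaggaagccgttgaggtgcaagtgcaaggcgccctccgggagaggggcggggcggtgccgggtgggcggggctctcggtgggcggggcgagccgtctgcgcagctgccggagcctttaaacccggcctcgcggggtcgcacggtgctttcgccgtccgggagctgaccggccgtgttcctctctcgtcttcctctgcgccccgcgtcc

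The Mrps6 window holds instead the SP1 type letters, and its GC content of 73.7% is above the 48.0% of the Mrpl35 window. A match is a run of letters and not a measured site, and no binding was measured in these samples.

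Many of these genes start beside a gene on the other strand. Of the 69 members with a window, 26 (37.7%) had a start site within 1000 bases of that of a gene that is transcribed away from it on the opposite strand, against 12.3% of 27025 genes in the same table. Those 27025 genes were not limited to protein-coding or detected genes. The share of cytosolic ribosomal and oxidative phosphorylation genes in such pairs was not computed. In 1 such pair both genes are members: Mrpl46 and Mrps11, with start sites 42 bases apart, differed by 0.20 ± 0.12 and 0.24 ± 0.12 between susceptible and naive mice, and neither passed. Mrpl43 starts 116 bases from Twnk, the gene of the helicase that unwinds mitochondrial DNA. Twnk differed by 0.41 ± 0.22 (adjusted p = 0.261 in limma, 0.0388 with slide as a block). Mrps12 starts 147 bases from Sars2, the mitochondrial seryl-tRNA synthetase, which differed by 0.16 ± 0.13 beside 0.34 ± 0.11 for Mrps12. Of the 24 partners tested, 0 passed without the block and 4 passed with it (Twnk, Ptcd2, Zfp189 and Ncapd2), near the 15.4% of all genes. Ptcd2, the partner of Mrps27, differed by 0.38 ± 0.12 (adjusted p = 0.0775, and 0.0331 with the block).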

How the data were processed

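Each of 14 mice gave medial prefrontal cortex RNA for its own 1-colour Agilent array. Spot intensities deposited by the authors came from Agilent Feature Extraction 11.0.1.1, per the file headers. Its processed signal, used here, has the background subtracted and no normalisation across arrays. The authors also deposited a table of log2 values. Each of its columns equalled log2 of the processed signal minus a constant (r = 1), with the 75th percentile over its rows at 0 and medians from -3.09 to -2.74. Its scale and direction were therefore known, and genes were not centred.

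Spots of a probe were averaged without outlier spots (104 to 184 per array), log2 was taken, and each array's 75th percentile over its non-control spots was subtracted. The filter kept probes well above background on every array of 1 group or more. The share of an array's spots well above background ran from 48.0% to 65.4%, and none was saturated. Precision is limited by the number of arrays. Transcript accessions were matched without versions to RefSeq genes of GRCm38.p6, for names and neighbours only, as the headers name an older build. Of 55681 probes, 27509 received a gene name and 28172 did not. Of 14450 genes passing, 5 with an outlier spot on an array were left out.

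Groups were compared in 1 fit of all 14 arrays and 3 groups with limma 3.58.1 in R 4.3.3 (lmFit, eBayes), with Benjamini-Hochberg adjustment over 14445 genes and calls at adjusted p under 0.05. Differences are on the log2 scale with the fit's standard error (SE). Second probes were fitted among 29813 probes. The fit without a block was run on simulated data with independent noise and no slide effect. Recovery was required there only for changes wider than the difference of any member. The fit with slide as a block was not checked in this way. The members, lists and tests were chosen with earlier results of these data known. Per comparison, named members were those past the threshold or else the 3 of smallest p in each direction, up to 10 more past it with slide as a block, the genes listed by place in the ribosome, the brightest, dimmest, widest and narrowest, and up to 3 of each related list. Genes beside or overlapping a member, and further list members that passed with the block, were named after their values were seen. The labels do not pair mice that share a replicate number. Deviations from the group means were correlated above 0.1 in 8 of 11 same-numbered pairs, from -0.38 to 0.71. The median correlation was 0.28 for these pairs and 0 for pairs with other numbers. It was 0.27 for pairs on the same slide and -0.08 for pairs on different slides. The part of slide in the same-numbered correlations was not tested.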

Additional observations from a re-analysis of the deposited data

Results flagged for a closer look

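In 78 groups of susceptible or naive mice that were checked for a value far from the others, 3 were found, and chance alone marks about 1 in 20 groups. Mrps12 in susceptible 4 was at 4.63, with the next mouse at 4.19. Mrps26, a small subunit gene, was at 4.54 in naive 1, with the next mouse at 4.78. The median over the 77 mitochondrial ribosomal genes was -0.13 in susceptible 3, relative to the naive mean, with the next susceptible mouse at 0.05.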

How the results depend on the processing

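The number of mitochondrial ribosomal genes called between susceptible and naive mice is given with the share of all genes called in parentheses. It was 1 (2.6%) in the fit as reported, 6 (9.86%) at an adjusted p under 0.1, 4 (4.04%) with quantile normalisation, 0 (0.775%) with normexp, 0 (0.168%) with no filter on dim probes and 3 (3.78%) with the percentile over probes above background on all arrays. It was 10 (15.4%) with slide and 11 (17.3%) with scan day as a block, 6 (10.1%) with array brightness as a covariate and 0 (0.457%) with only the groups compared. It was 2 (11.8%) with a replicate block, and 0 to 14 over the fits that left out 1 mouse. Those with slide as a block, which gave 1, 2, 4, 5, 6, 7, 8, 9 or 14, were added after seeing the data. Between resilient and naive mice, where it was 0, it was 1 (3.54%) with slide and 5 (10.1%) with scan day as a block, 1 (7.64%) with array brightness, and 0 to 3 without 1 mouse. The causes were not tested, except that fewer mice entered the fits that left mice out. Between susceptible and resilient mice it was 0 under every alternative run. No other alternative moved these counts. Quantile normalisation, the other percentile and normexp gave medians of 0.09, 0.07 and 0.13 between susceptible and naive mice, and of 0.04, 0.03 and 0 over all genes, beside 0.06 and 0.02 as reported. Over all alternatives run, the median of the members lay between 0.01 and 0.13 in that comparison, -0.04 and 0.06 between resilient and naive and 0.02 and 0.13 between susceptible and resilient mice. The difference of Mrpl2 between susceptible and resilient mice, -0.07, became 0.01 with the replicate block and 0, 0.01, 0.02, 0.03 or 0.07 in some fits with slide as a block and 1 mouse left out, and that of Mrps34, -0.09, became 0.01 in 2 of those fits. The number of arrays limits the precision.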
